A study of Mus musculus with 24 samples.

Results

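Sec14l1 was followed through all of its probes in the gastrocnemius of mice fed a high-fat diet with or without an addition. The members were the probes of the scanner files that carry the gene name Sec14l1, which were 3 of 41174 different probes for 1 gene of 10699 named and bright enough, and all 3 passed the filter on dim signals that left 15958 probes. The gene was chosen because, in earlier results of these same arrays, it headed the list for cHF+F against cHF, so its values in that contrast are given here as a description, with no test. The 24 samples were male C57BL/6N mice, 1 animal per two-colour array, 3 months old at the start and fed their diet for 8 weeks. The cHF mice (n = 8) received an obesogenic diet with 35% lipids by weight based on corn oil. In the cHF+F mice (n = 8), 15% of the lipids was exchanged for a concentrate of marine n-3 fatty acids (46% DHA and 14% EPA). In the cHF+ROSI mice (n = 8), the cHF diet contained 10 mg of rosiglitazone, a thiazolidinedione drug, per kg. All 3 groups had been fasted for 10 h and re-fed Chow during the night before dissection, so every animal had eaten the same food last. Each animal was labelled with Cy5 and hybridized against a common pool labelled with Cy3, and no dyes were swapped. The pool held the RNA of these animals and of mice given rosiglitazone at 100 mg per kg of diet, a group not analysed here. Whole muscle was used, so that a lower number of cells of a type and less RNA per cell cannot be told apart.

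SEC14L1 belongs to a family of proteins related to yeast Sec14, which bind lipids in a pocket formed by the CRAL-TRIO (SEC14) domain and move or present them between membranes. The protein combines this domain with a PRELI domain, also found in mitochondrial lipid carriers, and a GOLD domain, found in proteins of Golgi transport. It has been described as an inhibitor of the antiviral RNA sensor RIG-I, and as a partner of the transporters that load acetylcholine and choline in cholinergic neurons.

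The 3 probes lie on the plus strand of chromosome 11 in the coordinates of the scanner files (mouse build mm8) and are spread over 3476 bases. Probe A_52_P197223 covers 116971459 to 116971518 and probe A_52_P391623 covers 116974875 to 116974934, both 60 bases. The coordinates of probe A_52_P197215 run from 116972609 to 116972929, a span of 321 bases. This is the distance between the outer coordinates, and the length of the probe itself was not read. An annotation of that build was not used here, so exons and UTRs are not named, and all 3 probes were matched to Sec14l1 through the same transcript. RefSeq lists 2 transcription start windows for the gene on build GRCm38.p6. They are printed here because the arrays read the gene only through these 3 probes, and which start was used was not measured. Each window holds 300 bases on the plus strand, most of them before the start, with CpG dinucleotides in capitals.

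Upstream start, chr11:117114918-117115217: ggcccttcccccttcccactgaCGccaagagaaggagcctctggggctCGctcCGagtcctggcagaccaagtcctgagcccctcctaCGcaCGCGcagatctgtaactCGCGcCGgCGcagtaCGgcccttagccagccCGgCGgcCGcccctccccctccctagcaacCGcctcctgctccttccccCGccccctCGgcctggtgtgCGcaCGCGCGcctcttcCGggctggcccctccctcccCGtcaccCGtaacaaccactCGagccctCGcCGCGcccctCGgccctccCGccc

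Downstream start, chr11:117135758-117136057: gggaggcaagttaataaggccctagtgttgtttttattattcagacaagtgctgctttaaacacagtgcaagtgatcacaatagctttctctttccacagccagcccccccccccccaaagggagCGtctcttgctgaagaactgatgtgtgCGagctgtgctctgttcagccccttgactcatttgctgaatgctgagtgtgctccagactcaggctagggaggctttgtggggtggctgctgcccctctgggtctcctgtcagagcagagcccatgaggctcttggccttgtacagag

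The upstream window holds 30 CpG and 73% G or C, and 10.6% of 32841 mouse promoter windows of this length hold more CpG. The downstream window holds 2 CpG and 53.3% G or C, against a median of 7 CpG, and 76.7% of the windows hold more. The half-site AGGTCA of nuclear receptors such as the PPARs was searched on both strands and found in neither window, while 16.3% of all windows hold it. This describes the letters of the windows only.

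All 3 probes were well above background in both channels on 24 of 24 arrays, and none was flagged or saturated on any. The brightest was A_52_P391623, with a mean signal of 20.3 times the local background in Cy5 and 8.50 times in Cy3. A_52_P197215 had 12.1 and 5.41 times the background, and A_52_P197223 had 7.55 and 3.85 times. Among the kept probes, they stood at the 64.8th, 50.7th and 37.9th percentile of mean intensity, and the level of 1 probe is not compared with that of another. Of the arrays, 2 stood apart in brightness: cHF replicate 3, with 30.4% of its spots well above background in Cy5, and cHF+ROSI replicate 4, with 91.1%, where the median array of a diet had 53.1% to 55.8%.

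On the log2 scale of the ratio of animal to pool, the Sec14l1 values of the cHF+F mice lay highest, those of the cHF mice lowest and those of the cHF+ROSI mice between them, for each of the 3 probes. With probe A_52_P391623, the log2 ratios of the cHF mice ran from -0.23 over a median of -0.12 to 0.062. Those of the cHF+F mice ran from 0.054 over a median of 0.17 to 0.27, and those of the cHF+ROSI mice from -0.14 over a median of -0.023 to 0.11. The groups cHF and cHF+F overlapped at 1 array each, namely cHF replicate 8, the highest of its group, and cHF+F replicate 4, the lowest.

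With probe A_52_P197223, the lowest, median and highest log2 ratios were -0.30, -0.16 and -0.087 in the cHF mice. They were -0.033, 0.12 and 0.20 for cHF+F, and -0.23, -0.057 and 0.017 for cHF+ROSI. With this probe the cHF and cHF+F mice did not overlap, and the gap between them was 0.054. With probe A_52_P197215, the corresponding log2 ratios were -0.30, -0.15 and -0.019 for cHF, -0.013, 0.15 and 0.21 for cHF+F, and -0.28, -0.038 and 0.084 for cHF+ROSI. Here the cHF and cHF+F mice were again separate, by a gap of 0.0057. A separation of these groups with higher values in the cHF+F mice was met by 0.0251% of all kept probes (4 of 15958), a count that includes both of these probes and from which nothing is read, because the gene was selected on this comparison.

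**Figure D1:**
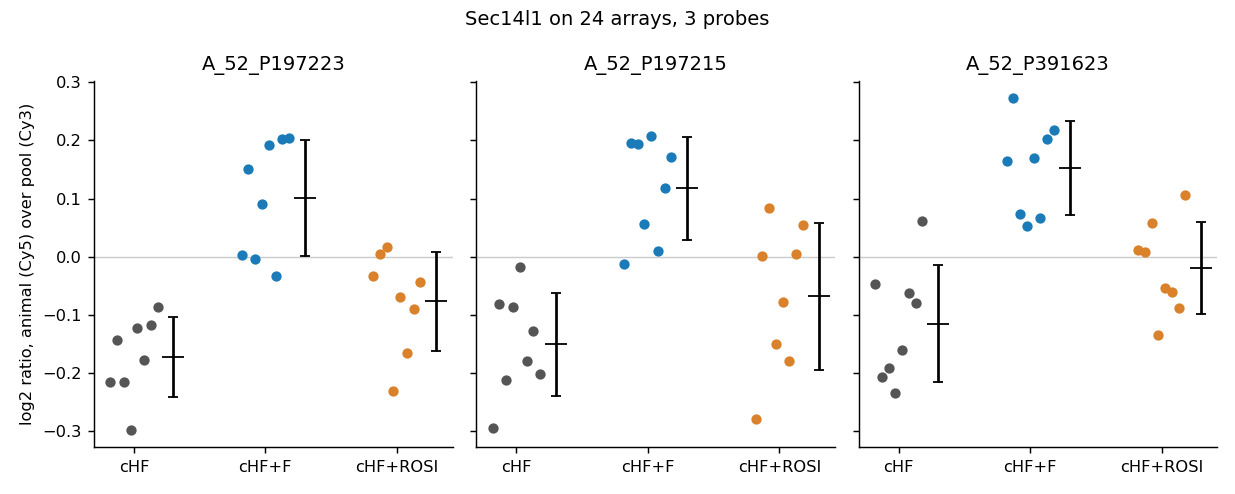
Each panel shows 1 Sec14l1 probe; the vertical axis is the log2 ratio of Cy5 (1 animal) over Cy3 (common pool), points are the 8 arrays of a group in the order of their replicate numbers, and the black mark and bar are the mean and SD. In all panels the 8 cHF+F arrays lie above the cHF mean, and the cHF+ROSI group overlaps both others.

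The means ± SD (n = 8) of the log2 ratio of probe A_52_P391623 were -0.12 ± 0.10 for cHF, 0.15 ± 0.081 for cHF+F and -0.019 ± 0.080 for cHF+ROSI. The difference of the cHF+F from the cHF mice was 0.27 (SE 0.050), a ratio of 1.20. It was 0.27 (SE 0.049) for A_52_P197223 and 0.27 (SE 0.056) for A_52_P197215, ratios of 1.21 and 1.20. With each probe, 8 of 8 cHF+F arrays were above the cHF mean. Of the kept probes, 1.47% to 1.56% had a larger absolute difference in this comparison. The SD within groups was 0.086 for A_52_P197223, 0.10 for A_52_P197215 and 0.087 for A_52_P391623, where the median kept probe had 0.15, and the ranking by which the gene was chosen favours a small SD. Over the whole table, 0% of the probes were called for cHF+F against cHF at an adjusted p under 0.05, and 6.86% (1094 of 15958) had an unadjusted p under 0.05 in limma.

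Rosiglitazone was compared with the control diet to ask which muscle genes responded to the drug. The difference of the cHF+ROSI from the cHF mice in the log2 ratio of Sec14l1 was 0.096 for A_52_P391623 (SE 0.050, 95% interval -0.0069 to 0.20), and it did not pass the test (limma adjusted p = 0.996). It was 0.096 for A_52_P197223 (95% interval -0.0058 to 0.20) and 0.083 for A_52_P197215 (95% interval -0.032 to 0.20), each with a limma adjusted p of 0.996. Above the cHF mean were 7, 7 and 6 of the 8 cHF+ROSI arrays with these probes in the same order. The cHF arrays of this comparison are those on which the gene was chosen, so its values are not independent of that choice. Without cHF+ROSI replicate 4, the brightest array and the lowest of its group with 2 of the probes, the differences were 0.11, 0.12 and 0.094. With median centring of the arrays in place of loess they were 0.021, 0.025 and 0.0051, and with the processed signals of the scanner software 0.16, 0.16 and 0.12. In the whole table, 0% of the probes were called in this comparison at an adjusted p under 0.05, and 4.7% had an unadjusted p under 0.05.

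The mice given n-3 fatty acids were also set against those given rosiglitazone. The log2 ratio of Sec14l1 was higher in the cHF+F than in the cHF+ROSI mice by 0.17 for A_52_P391623 (SE 0.050, 95% interval 0.069 to 0.27, limma adjusted p = 0.486), which did not pass the test. The difference was 0.18 for A_52_P197223 (SE 0.049, 95% interval 0.076 to 0.28, limma adjusted p = 0.486) and 0.19 for A_52_P197215 (SE 0.056, 95% interval 0.071 to 0.30, limma adjusted p = 0.511). With each probe 8 of 8 cHF+F arrays lay above the cHF+ROSI mean, but only 5 of 8 lay above the highest cHF+ROSI array. The unadjusted limma p-values were 0.00197, 0.00132 and 0.00256, and the cHF+F arrays are those on which the gene was chosen. At an adjusted p under 0.05, 0% of all probes were called here, and 6.67% had an unadjusted p under 0.05. In the order of the 3 group means, then, neither the step from cHF to cHF+ROSI nor that from cHF+ROSI to cHF+F passed the correction over all probes.

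Each of the 8 slides held 1 array of each group, which allowed a comparison free of differences between slides. With probe A_52_P391623 the difference of the cHF+F from the cHF array in the log2 ratio was positive on 8 of 8 slides, between 0.13 on slide 6 and 0.48 on slide 2. For A_52_P197223 it lay between 0.15 and 0.39 and for A_52_P197215 between 0.14 and 0.41, again above 0 on all 8 slides. Because the gene was chosen on this comparison in these arrays, nothing is read from the shared sign. The mean over the 3 probes ran from 0.15 on slide 6 to 0.35 on slide 2 (0.27 ± 0.056, SD, 8 slides). For cHF+ROSI against cHF, the difference of A_52_P391623 was above 0 on 7 slides, that of A_52_P197223 on 8 and that of A_52_P197215 on 6. It was largest on slide 3 with every probe, at 0.25, 0.23 and 0.30, and the mean over slides 1 to 3 was 0.17, 0.19 and 0.13, against 0.048, 0.041 and 0.053 over slides 4 to 8. This split of the slides was not planned. With A_52_P197215, slide 8 (0.26) stood above slides 1 (0.016) and 2 (0.083). For cHF+F against cHF+ROSI, the difference was above 0 on 8, 7 and 8 slides, and smallest on slide 3, at 0.015, -0.021 and 0.11. With the slide as a replicate block in limma, the 3 adjusted p-values were 0.480, 0.478 and 0.553 for cHF+ROSI against cHF and 0.124 for each probe in cHF+F against cHF+ROSI. Within a slide, each diet always had the same place, so that place and diet cannot be told apart.

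**Figure D2:**
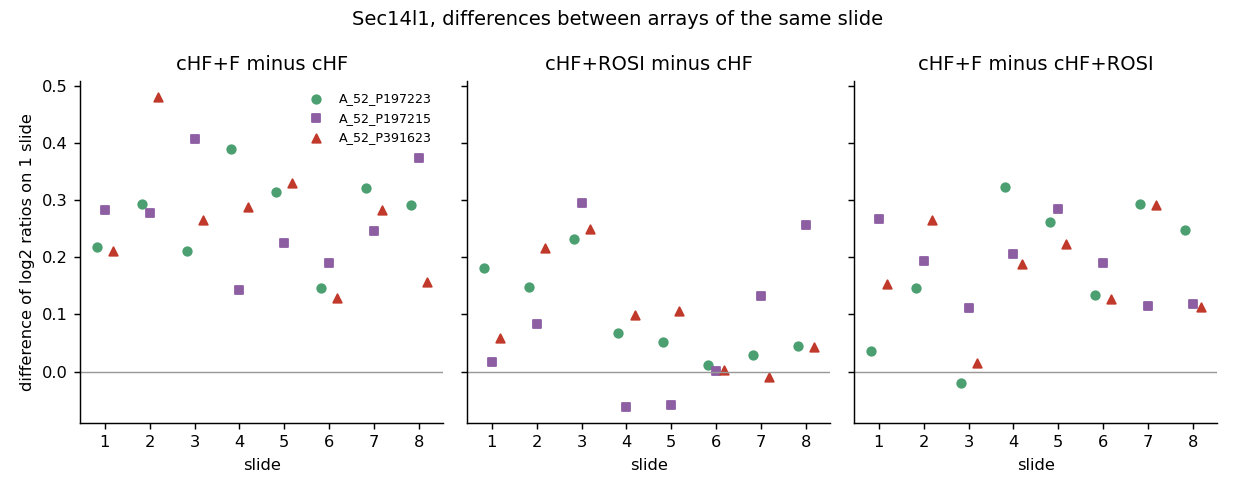
The horizontal axis is the slide (1 to 8) and the vertical axis the difference of the log2 ratio between the 2 arrays of that slide named above each panel; the 3 symbols are the 3 Sec14l1 probes. Every point of the left panel lies above 0, whereas the other panels hold points at or below 0 and slide 3 stands highest in the middle panel and lowest in the right one.

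The 2 dyes were then read apart, each after quantile normalization between arrays, because the Cy3 signal came from the same pool on all arrays. In Cy5 alone the log2 signals of A_52_P391623 ran from 9.70 over a median of 9.95 to 11.0 in the cHF mice. They ran from 9.91 over 10.1 to 10.7 in the cHF+F mice, and from 9.62 over 9.88 to 10.2 in the cHF+ROSI mice. All groups overlapped, and the arrays of slides 1 to 3 were the highest of each group. The array of cHF replicate 3 was the highest of all 24, in Cy5 (11.0) and also in Cy3 (10.1), where the other 23 arrays held the pool at 8.65 to 9.39. Before normalization, this array had the lowest Cy5 spot signals of the 3 probes among the 24 arrays (159, 228.5 and 320 units, in the order of the coordinates) and, as given above, the lowest share of bright spots.

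In Cy5 alone, the difference of the cHF+F from the cHF mice was 0.12 (SE 0.15) for A_52_P391623, 0.23 (SE 0.21) for A_52_P197223 and 0.18 (SE 0.18) for A_52_P197215, on the log2 signal scale. It was above 0 on 7 of 8 slides with every probe and below 0 on slide 3, at -0.31, -0.17 and -0.48. Without cHF replicate 3, the differences in Cy5 were 0.25, 0.39 and 0.35. Without the 3 arrays of slide 3 they were 0.18, 0.28 and 0.28. In Cy3 alone, the difference between the same groups was -0.14 (SE 0.15) for A_52_P391623, -0.066 for A_52_P197223 and -0.10 for A_52_P197215, and without slide 3 it was -0.068, 0.0013 and 0.021. The log2 ratio itself moved less: without slide 3 the differences were 0.27, 0.28 and 0.25.

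For cHF+ROSI against cHF the direction turned when Cy5 was read alone. The differences were -0.16 for A_52_P391623 (95% interval -0.48 to 0.16, limma adjusted p = 0.797), -0.041 for A_52_P197223 (adjusted p = 0.949) and -0.063 for A_52_P197215 (adjusted p = 0.912). Without cHF replicate 3 they were -0.029, 0.13 and 0.10, so that only the brightest probe kept the negative sign. For cHF+F against cHF+ROSI, the Cy5 differences were 0.28 (95% interval -0.038 to 0.60), 0.27 and 0.24, with limma adjusted p = 0.999 for each probe, and were above 0 on 8 of 8 slides for each.

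**Figure D3:**
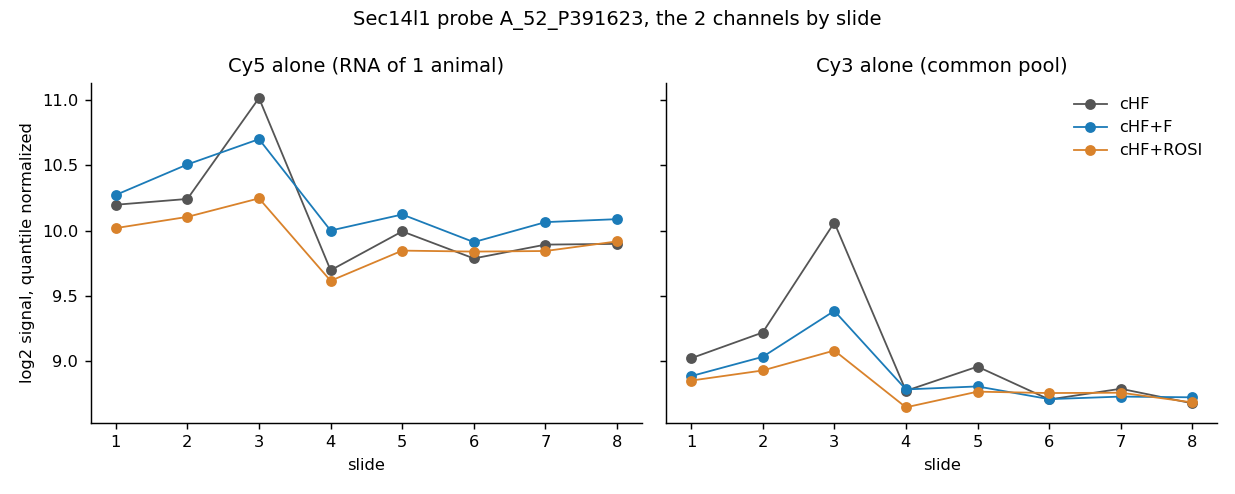
Log2 signal (vertical axis, quantile normalized between arrays) of the brightest Sec14l1 probe by slide (horizontal axis), for the dye of the animal (left) and of the common pool (right); each point is 1 array and lines join the arrays of a diet. Both dyes are high on slides 1 to 3 and peak at the cHF array of slide 3 (11.0 in Cy5 and 10.1 in Cy3), and on the other 7 slides the cHF+F array is the highest in Cy5.

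The deposited table of log2 values, which the authors made from the same arrays, holds all 3 probes for the cHF and cHF+F mice. Its columns name the group but not the replicate. Mean values of A_52_P391623 in it were 10.46 ± 0.12 for cHF+F and 10.2 ± 0.15 for cHF (SD, n = 8), a difference of 0.30. The differences of A_52_P197223 and A_52_P197215 were 0.30 and 0.29. In that table the groups overlapped with every probe, and 3, 5 and 4 of the 8 cHF+F values lay above the highest cHF value.

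To see whether the probes report the same animal-to-animal variation, their log2 ratios were compared over the 24 arrays after the group means were taken off, which leaves out the difference the gene was chosen for. A_52_P197223 and A_52_P391623 varied together (Pearson r = 0.66, Spearman coefficient 0.67, permutation p = 0.00079 and 0.00087, 0.0024 and 0.0026 after adjustment over 3 pairs). Within the groups, their r was 0.56 for cHF, 0.69 for cHF+F and 0.79 for cHF+ROSI, and it was 0.58 without the 2 arrays farthest from the median and 0.60 with slide means taken off. A_52_P197223 and A_52_P197215 had r = 0.44 and a Spearman coefficient of 0.46 (permutation p = 0.0427 and 0.0316, adjusted 0.0641 and 0.0474). This relation fell to r = 0.34 without the 2 farthest arrays, cHF+ROSI replicate 4 and cHF+F replicate 6, and to 0.074 with slide means taken off, so it did not hold within slides. A_52_P197215 and A_52_P391623 were not found to vary together (r = 0.10, Spearman coefficient 0.17, permutation p = 0.643 and 0.439), with r of -0.56 in the cHF mice and of 0.44 and 0.45 in the others. Probes of 1 array share its labelling, hybridization and normalization. The permutations kept the groups but not the slides, and no p was computed with slide means taken off. The p-values therefore do not separate variation between animals from variation between slides. In single channels, r between the probes was 0.94 to 0.95 in Cy5 and 0.95 for each pair in Cy3, and the second of these is the same pool on every array.

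**Figure D4:**
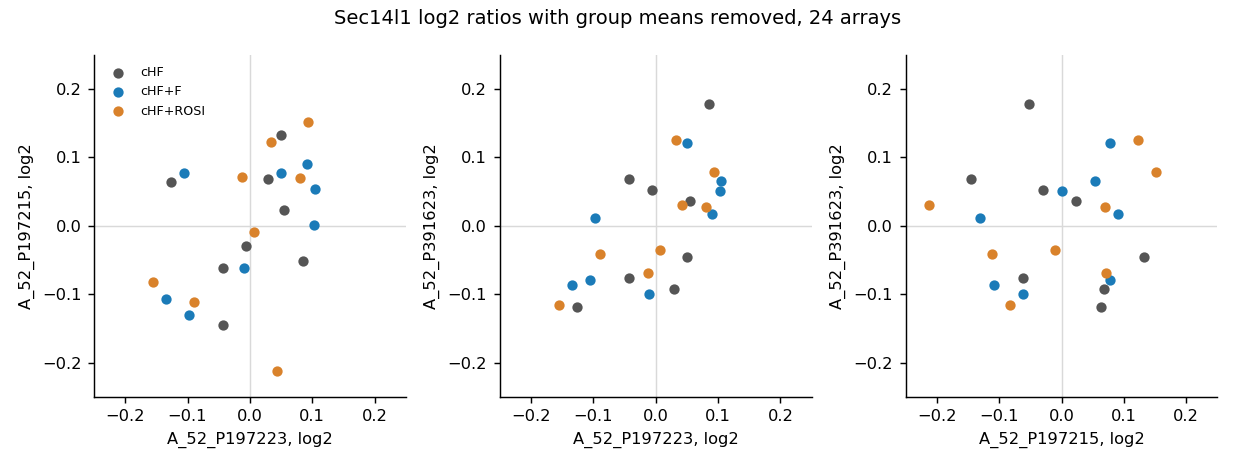
Each panel sets 2 Sec14l1 probes against each other; both axes are the log2 ratio of an array minus the mean of its group, and each point is 1 of the 24 arrays, coloured by diet. The points follow a line in the middle panel (r = 0.66), less so in the left one (r = 0.44), and show none in the right one (r = 0.10).

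Of the other genes with a SEC14 domain, 22 of the 23 listed had a probe on the array and 7 passed the filter on dim signals. Of the relatives nearest to Sec14l1, Sec14l2, Sec14l3 and Sec14l4 did not pass it, and Sec14l5 was the 1 gene without a probe. Between the cHF+F and the cHF mice, the 7 genes differed by -0.17 to 0.10 on the log2 scale, with a median of -0.039 against 0.00063 over all kept probes, and none was called. Nf1, the Ras GTPase-activating protein neurofibromin, had the smallest p-value of them (-0.17, SE 0.069, limma adjusted p = 0.611). Prune2 (0.10), Bnip2 (0.012) and Ttpal (-0.039), proteins with a SEC14-like fold, had adjusted p-values between 0.965 and 0.996, as did the guanine nucleotide exchange factors Trio (-0.048) and Mcf2l (0.018), while Kalrn (-0.070), a further exchange factor, had 0.961. In the cHF+ROSI mice, Mcf2l had the largest difference from the cHF mice of the list, 0.28 (limma unadjusted p = 0.030, adjusted p = 0.996).

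The other lists covered the remaining domains, the pathway and the synapse. Of the PRELI domain genes and their partner, 3 of 5 were measured, Prelid1 (-0.0038), Prelid3b (0.056) and Triap1 (-0.015), which serve lipid transfer between the mitochondrial membranes, and none was called in the cHF+F mice. Of the GOLD domain genes, 10 of 11 were measured, with log2 differences of -0.12 to 0.063 between the cHF+F and cHF mice. Their median was -0.015, with 5 genes higher and 5 lower. The cargo receptors Tmed1 (-0.12), Tmed7 (-0.11), Tmed5 (-0.051) and Tmed3 (-0.038), named by the smallest p in any comparison, were all among the lower ones. Of the RIG-I signalling genes, 9 of 14 were measured, with a median difference of -0.033 between the cHF+F and cHF mice, against 0.00063 over all kept probes. Ifih1, the sensor MDA5, had -0.19 (SE 0.061, limma adjusted p = 0.473) and the adaptor Sting1 -0.19 (SE 0.072, limma adjusted p = 0.578), whereas the adaptor Mavs had -0.14 and Traf3, a ubiquitin ligase, 0.14. The gene of RIG-I itself did not pass the filter on dim signals.

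Among the genes of the cholinergic synapse of muscle, 7 of 13 were measured. Musk, the receptor kinase that organizes the endplate, differed by 0.24 (SE 0.086, limma adjusted p = 0.557) and Rapsn, which clusters the acetylcholine receptors there, by 0.13 between the cHF+F and the cHF mice, Chrna1, a subunit of the acetylcholine receptor, by 0.052, and Ache, the esterase, by -0.14 (SE 0.068, limma adjusted p = 0.710). The genes of the vesicular acetylcholine transporter, the choline transporter and choline acetyltransferase did not pass the filter on dim signals. In all, 42 genes of the 6 lists were measured, with 0 called in any of the 3 comparisons, and an unadjusted p under 0.05 was met by 5 of them (11.9%) for cHF+F against cHF, 2 (4.76%) for cHF+ROSI against cHF and 2 (4.76%) for cHF+F against cHF+ROSI, beside 6.86%, 4.7% and 6.67% of all probes.

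The nearest named genes on chromosome 11 were also read, of which 6 of 8 were measured. On the side of lower coordinates these were Snhg20 (76537 bases from the first Sec14l1 probe), Mfsd11 (281262) and Srsf2 (303267), with log2 differences of -0.032, 0.046 and 0.035 between the cHF+F and cHF mice. On the other side they were Septin9 (203273 bases from the last probe), Tnrc6c (603112) and Tmc6 (607290), with 0.034, -0.061 and -0.11. The limma adjusted p-values of the 6 ran from 0.860 to 0.988. For cHF+ROSI against cHF, the log2 differences of Srsf2 (0.12), Snhg20 (-0.11) and Tnrc6c (-0.11) were larger in size than those of the Sec14l1 probes (0.083 to 0.096), and none passed the test (limma adjusted p = 0.996).

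**Figure D5:**
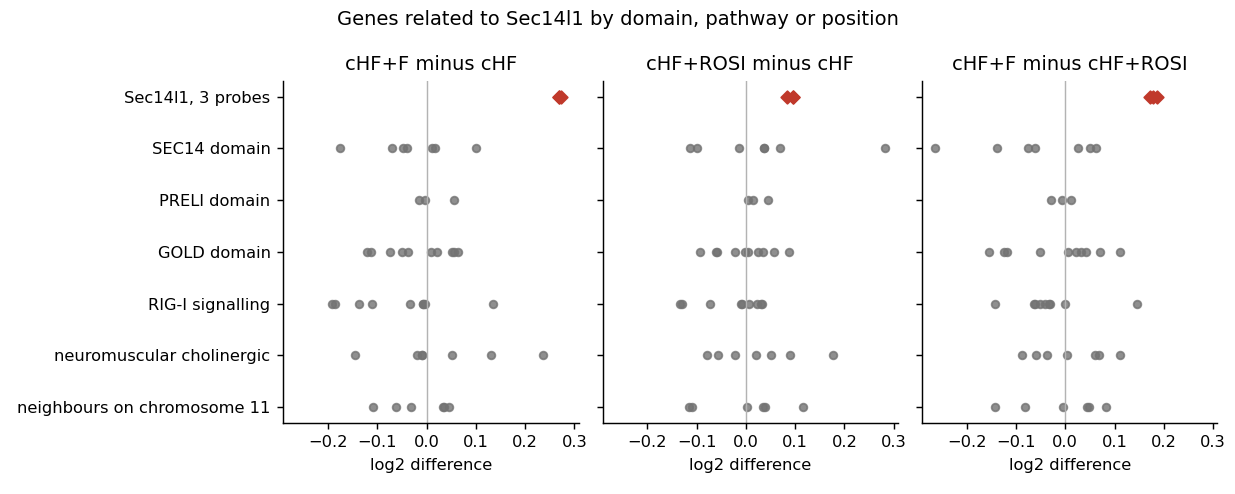
Log2 differences (horizontal axis) of the 3 comparisons, 1 per panel, for the 3 Sec14l1 probes (diamonds) and for the measured genes of the 6 lists (circles, 1 probe a gene). Differences of the related genes in the left panel run from -0.19 to 0.24, and the 3 Sec14l1 probes, chosen on that comparison, stand at 0.27.

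The genes most like Sec14l1 were sought by the correlation with A_52_P391623 over the 24 arrays after group means were taken off, a description without a test. Of all other kept probes, the one most like it was its own probe A_52_P197223, and A_52_P197215 came only at place 5818. The 6 genes with the highest r were AU040320 (0.65), Slc26a6 (0.65), an anion exchanger, Vps9d1 (0.64), Gpd2 (0.63), the mitochondrial glycerol-3-phosphate dehydrogenase, Mfsd11 (0.63), which is also a neighbour on chromosome 11, and Fbxo34 (0.63). The 6 with the lowest were Cpxm2 (-0.70), the muscle LIM protein Csrp3 (-0.69), the fatty acid transporter Cd36 (-0.65), Pamr1 (-0.63), the small heat shock protein Cryab (-0.62) and Lmcd1 (-0.62). The r of each gene is that of its most extreme probe. A second kept probe had 0.36 for AU040320, 0.43 for Slc26a6, 0.21 for Gpd2 and 0.15 for Mfsd11. It had -0.63 for Cpxm2, -0.54 for Cd36 and 0.080 for Cryab. The names of these genes were not stable. With slide means taken off, 0 of the 12 genes stayed among the 6 highest and 6 lowest, with Cy5 alone 0 and with median centring 1. Their r values with slide means taken off were 0.31 to 0.63 for the first 6 and -0.70 to -0.24 for the others. In Cy5 alone they were -0.73 to 0.83 for the first 6 and -0.93 to 0.60 for the others. With median centring they were 0.72 to 0.96 and 0.22 to 0.68. The sign of r thus depended on the processing too. With the probe A_52_P197215, the r values of the same genes were between -0.31 and 0.18.

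The labelled tissue was checked against marker genes. All 10 muscle fibre markers, including Acta1, Ckm and Myh4, were measured on 24 of 24 arrays and stood at the 98.3rd percentile of intensity or above. Mean log2 ratios of marker lists are given beside the Sec14l1 values, and their part in those values was not tested. They are over 6 to 10 genes for most lists, but over 5 for the Schwann cell, 4 for the liver, 3 for the testis and 2 for the blood list. The list of 6 slow fibre genes had -0.36 ± 0.50 for cHF+F, 0.090 ± 0.35 for cHF and -0.13 ± 0.62 for cHF+ROSI (SD, n = 8). The list of 9 endothelial genes had -0.12 ± 0.10, 0.061 ± 0.13 and -0.073 ± 0.086 in the same order, and 2 of its genes, Icam2 and Cldn5, were already known from earlier results of these arrays to be low in the cHF+F mice. The muscle fibre list had 0.18, 0.19 and 0.026 for cHF, cHF+F and cHF+ROSI, the adipocyte list -0.33, -0.37 and -0.31, the macrophage list -0.025, -0.19 and -0.090, the fibroblast list 0.015, 0.040 and -0.035, the Schwann cell list -0.14, -0.10 and 0.18, and the blood list 0.022, 0.00064 and -0.38. The SD within a group was 0.17 to 0.29 for the macrophage, 0.23 to 0.50 for the Schwann cell and 0.21 to 0.63 for the blood list. The slow fibre, endothelial and macrophage lists ran opposite to Sec14l1 in the order of the group means. Of the slow fibre genes, Tnni1, Myh7 and Tnnc1 were already reported by the authors as lower in the cHF+F than in the cHF mice of these arrays. The order of that list is therefore not an independent observation. Over the 24 arrays with group means taken off, the r with A_52_P391623 was -0.37 for the slow fibre, -0.35 for the fibroblast, -0.26 for the Schwann cell, -0.23 for the macrophage, -0.11 for the adipocyte, -0.093 for the muscle fibre, 0.036 for the blood, 0.058 for the endothelial, 0.28 for the liver and 0.34 for the testis list. Markers of tissues that a muscle sample should not hold varied most among the cHF+ROSI arrays, where the mean of 4 measured liver markers ran from -2.30 to 1.48 and that of 3 testis markers from -0.88 to 2.49, beside -2.30 to -0.48 and -0.91 to -0.23 for cHF and -1.62 to 0.62 and -0.92 to 0.73 for cHF+F.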

How the data were processed

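RNA of the gastrocnemius of 24 mice was hybridized on 24 two-colour arrays (8 slides, scanned on 1 day). Per the file headers, the deposited intensity values are linear median spot signals and local backgrounds from Feature Extraction version 10.5.1.1 (the submitters' processing notes name 10.5.5.1). The authors also deposited a table of log2 values, Cy5 normalized against Cy3 after removal of dim spots, and 16 of its columns were used. A further 8 columns are named for n-3 fatty acids with rosiglitazone (cHF+F+ROSI), which matches no group of the 24 samples. They were not used, and which animals they hold was not settled.

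Signals were corrected by normexp (offset 50) and log2 ratios normalized by loess (span 0.3) in limma version 3.58.1 (R version 4.3.3, data.table version 1.17.8). Flagged spots were left out, and kept probes had 4 unflagged arrays per group and a mean signal of at least 2 times background in both channels. Groups came from the labels and were compared in 1 limma model (lmFit, eBayes, two-sided) without a block, adjusted by Benjamini-Hochberg over all 15958 kept probes, with calls at an adjusted p under 0.05. Fits were tested on simulated data. Single channels were quantile normalized. Probe pairs were compared with 100000 permutations within groups. Of the kept probes, 12577 were named by accession, 2548 by file name and 833 had no symbol.

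The gene, the lists (SEC14, PRELI and GOLD domains, RIG-I signalling, cholinergic synapse, neighbours, cell type markers) and the tests were chosen with earlier results of these data known. Named were all kept SEC14 genes and neighbours, in other lists the 4 genes with the smallest p, and the 6 most and 6 least correlated genes. Arrays with the same replicate number shared a slide, and many deviated together. The correlation of their deviations was over 0.1 in 6 of 8 pairs for cHF+F and cHF (median 0.47). It was so in 7 of 8 for cHF+ROSI and cHF (median 0.26) and 5 of 8 for cHF+F and cHF+ROSI (median 0.11). The main model leaves the slide out, and the slide is an alternative. The number of arrays limits the precision. Alternatives covered background, spot statistic, normalization, channel, weights, block, filter, the authors' table, the methods' t-test and each array left out.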

Additional observations from a re-analysis of the deposited data

Results flagged for a closer look

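For each Sec14l1 probe, measure and diet, the array at the end of the range was compared with its neighbour (gap over range above the 95% critical value of Dixon for 8 arrays). Of 27 such groups, 5 held an array past this limit, where chance passes about 1 in 20, and the 5 are not independent because they come from the same array, cHF replicate 3. In Cy5 alone it was far above the other cHF arrays for A_52_P197215 (10.47) and A_52_P391623 (11.0). In Cy3 alone, the common pool, the same array stood apart for A_52_P197223 (9.15), A_52_P197215 (9.62) and A_52_P391623 (10.1). No log2 ratio of a Sec14l1 probe passed the limit on any array.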

How the results depend on the processing

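The difference of the cHF+F from the cHF mice stayed positive for all 3 probes in every alternative that gave a value, between 0.12 (Cy5 alone) and 0.33 (processed signals) for A_52_P391623, 0.23 and 0.43 for A_52_P197223, and 0.18 and 0.33 for A_52_P197215 under the same 2 settings. By more than the SD within groups it moved to 0.12 and, without slide 3, 0.18 in Cy5 alone for A_52_P391623, and to 0.43 with processed signals and 0.39 in Cy5 alone without cHF replicate 3 for A_52_P197223. The methods' t-test is not given for this comparison, on which the gene was chosen, and the authors' table has no columns named cHF+ROSI. Leaving out 1 array at a time, the difference of A_52_P391623 ranged from 0.25 to 0.29 for cHF+F against cHF, from 0.078 to 0.12 for cHF+ROSI against cHF (limma adjusted p 0.70 to 1.0) and from 0.15 to 0.19 for cHF+F against cHF+ROSI (0.391 to 0.738). For cHF+ROSI against cHF, Cy5 alone reversed the sign to -0.16, -0.041 (A_52_P197223) and -0.063 (A_52_P197215), and to -0.029 without cHF replicate 3 and -0.074 without slide 3 for A_52_P391623; these exclusions were chosen after seeing the data. The same comparison gave 0.021, 0.025 and 0.0051 with median centring, 0.16, 0.16 and 0.12 with processed signals, and 0.052 for A_52_P197215 without slide 3, and cHF+F against cHF+ROSI gave 0.27 for A_52_P197223 with processed signals. With a filter of 4 times background, A_52_P197223 dropped out. Adjusted p-values over the other alternatives were 0.478 to 1.0 for cHF+ROSI against cHF and 0.124 to 1.0 for cHF+F against cHF+ROSI, so neither passed in any. With the replicate block, the differences were the same (0.27, 0.096 and 0.17 for A_52_P391623). The methods' t-test gave 0 adjusted calls in each comparison, and 1265, 755 and 938 probes with a p under 0.05. Probes called for cHF+F against cHF were 2 with mean spot signals, 12 with array weights, 6 with the replicate block and 3 without the filter, and 0 to 2 with 1 array left out; for cHF+F against cHF+ROSI, 0 to 2. None of the related genes was called in any alternative. Agreement of the probes depended on the processing: r between A_52_P197223 and A_52_P197215 was 0.074 with slide means taken off, and the 3 pairs had 0.95, 0.95 and 0.94 in Cy5 alone and 0.95, 0.96 and 0.94 with median centring. Of the 12 most and least correlated genes, 0, 0 and 1 stayed under the 3 alternatives, and signs of r changed in Cy5 alone and with median centring. The causes were not tested. Signal over background limits A_52_P197223 most, at 2.57 times in the dimmest Cy3 array.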
